A study of Mus musculus with 6 samples.

Results

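The S100 genes described here encode 8 small proteins of the EF-hand family: S100a1, S100a4, S100a6, S100a8, S100a9, S100a10, S100a11 and S100a13. They were taken by symbol from the deposited count table. All 8 were among its 15168 genes, and all 8 passed the filter on low counts that left 11878 genes for testing. The samples were macrophages sorted from dorsal skin wounds of female wild-type C57BL6/J mice 3 days after wounding. There were 3 samples from young mice (12 weeks) and 3 from aged mice (24 months), labelled as sets A, B and C at each age. Cells were gated on CD45, CD11b, CD64 and F4/80, and Ly6G was not part of the gate, which leaves room for some neutrophils. The number of mice behind each sample and the housing site of each are not given in the sources used here, so the p-values below measure the spread between these samples, which may in part be technical. The estimated counts (expected counts) summed to between 15270103 and 17927483 per sample. In this bulk RNA, fewer cells of a type and less RNA per cell cannot be told apart.

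Most S100 proteins are dimers with EF-hand loops that change shape on binding calcium and then grip a target protein. S100A10 is an exception, since its loops do not bind calcium and it holds annexin A2 without it. S100A8 and S100A9 pair to form calprotectin, which is abundant in neutrophils and monocytes, binds zinc and manganese, and acts as an alarmin through TLR4 and RAGE once it is outside the cell. S100A10 and S100A11 bind annexins and take part in membrane repair and traffic, S100A4 binds non-muscle myosin, and S100A13 takes part in the export of FGF1 and IL-1α, which have no secretion signal. In skin, several S100 genes are also expressed by keratinocytes, and most lie in or beside the cluster of epidermal differentiation genes.

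Among the 8 genes, S100a11 alone passed the test between the ages, being higher in aged wound macrophages. The alarmin genes S100a8 and S100a9 did not pass, and 1 aged sample lay far below the other aged samples in each. S100a4, S100a6, S100a10, S100a1 and S100a13 did not pass either, within the intervals given below. The quasi-likelihood test of edgeR, with p-values adjusted by Benjamini-Hochberg across every tested gene and a threshold of 0.05, called 1 of 8 members higher in aged samples and 0 lower. Of all tested genes 17.7% were called, 9.73% higher and 7.97% lower. With a change of more than 2-fold added, 0 of the 8 were called in either direction, against 8.79% of all genes (4.59% higher and 4.2% lower). At an unadjusted p under 0.05 the edgeR test also passed S100a11 alone of the 8, beside 4101 of all 11878 tested genes. With all samples DESeq2 and limma-voom each called 1 member higher and 0 lower at an adjusted p under 0.05. The median log2 fold change over the 8 genes was 0.07, beside -0.02 over all tested genes. In S100a11 every aged sample lay above every young sample and in S100a1 every aged sample lay below. These are 2 of 8 members without overlap between the ages, beside 38.2% of all tested genes, of which 19.2% lay above and 19% below.

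The 8 genes lie on chromosome 3 of mm10 in 2 groups. S100a1, S100a13, S100a4, S100a6, S100a8 and S100a9 lie between 90511034 and 90695721, and S100a11 and S100a10 follow 2824766 bases further along. Upstream sequence is shown for the gene that differed (S100a11) and for the alarmin pair. The stretch between the divergent genes S100a1 and S100a13, whose profiles were the most alike of any pair of members, is also shown. The sequences are from RefSeq (GRCm38.p6), and the table of promoter sequences used here was matched for 7 of the 8 members. Each is written 5′ to 3′ on the strand of the gene and ends just before the gene's earliest annotated start. Capitals mark matches to the AP-1 motif (TGANTCA) or the C/EBP motif (TTGCNNAA), searched on both strands.
S100a11, chr3:93520246-93520487, plus strand: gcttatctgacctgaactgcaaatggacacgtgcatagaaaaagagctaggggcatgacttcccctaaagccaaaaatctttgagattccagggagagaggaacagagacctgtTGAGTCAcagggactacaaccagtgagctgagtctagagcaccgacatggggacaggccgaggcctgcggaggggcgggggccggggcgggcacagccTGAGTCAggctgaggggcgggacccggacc
S100a8, chr3:90668821-90668977, plus strand: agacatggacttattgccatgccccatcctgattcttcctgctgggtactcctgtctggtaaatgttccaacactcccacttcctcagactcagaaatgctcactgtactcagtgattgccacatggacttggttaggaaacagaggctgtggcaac
S100a9, chr3:90695722-90695971, minus strand: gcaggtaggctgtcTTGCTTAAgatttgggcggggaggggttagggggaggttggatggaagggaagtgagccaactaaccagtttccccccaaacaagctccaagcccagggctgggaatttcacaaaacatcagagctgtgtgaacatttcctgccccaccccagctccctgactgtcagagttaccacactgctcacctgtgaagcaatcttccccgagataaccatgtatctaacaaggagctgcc
Between S100a1 and S100a13, chr3:90514393-90514434, plus strand: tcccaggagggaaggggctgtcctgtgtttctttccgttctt

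In the 250 bases before the RefSeq start, S100a11 held the AP-1 letters at 2 places, from 136 and from 38 bases before the start. At least 1 match was found in 6.75% of 32851 RefSeq promoter windows of that length, and 2 or more in 0.338%. None of the other 6 members with a window held them. The GC-box letters GGGCGG (SP1) occurred 3 times in the S100a11 window, and 16.7% of windows held 2 or more. S100a9 held the C/EBP letters at 1 place, and 9.56% of windows held them at least once. S100a4 and S100a8 held the TATA box letters TATAAA within 31 bases of the start, and 12.4% of windows held them anywhere. For S100a8 and S100a11 the RefSeq start lies downstream of the earliest annotated start, where the printed stretch ends. The TATAAA of S100a8 therefore lies beyond its printed stretch. The S100a1 window held none of the 6 motifs searched, which were these 4, the E-box (CANNTG, found in 66.2% of windows) and the CRE (TGACGTCA, found in 1.55%). These matches describe the letters in the window, and no binding was measured.

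Compared per length, the members fell into an abundant group and a scarce pair. Levels are given as CPM (counts scaled to library size) per kilobase of the main GENCODE transcript, which ran from 486 to 731 bases. In young macrophages S100a10 stood highest at 713 ± 169.9 CPM per kilobase (SD, n = 3), followed by S100a11 at 515 ± 121, S100a9 at 509 ± 137, S100a4 at 396 ± 68.2, S100a6 at 375 ± 44.9 and S100a8 at 290 ± 62.9. Each of these overlapped its neighbour in that order within the spread between samples. S100a1 (49.0 ± 4.25) and S100a13 (37.0 ± 1.89) stood far below the rest, and all 3 young samples of S100a1 lay above all 3 of S100a13. In aged macrophages S100a11 stood highest at 963 ± 226 CPM per kilobase, and S100a10 next at 762 ± 69.5, with samples that overlapped those of S100a11. S100a9 followed at 584 ± 252, S100a8 at 404 ± 144, S100a6 at 390 ± 20.3 and S100a4 at 340 ± 41.7, while S100a1 and S100a13 stayed lowest at 40.8 ± 4.33 and 34.5 ± 5.54. S100a8 thus stood below S100a4 in the young order and above it in the aged order, in a stretch where neighbouring genes overlapped.

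**Figure D1:**
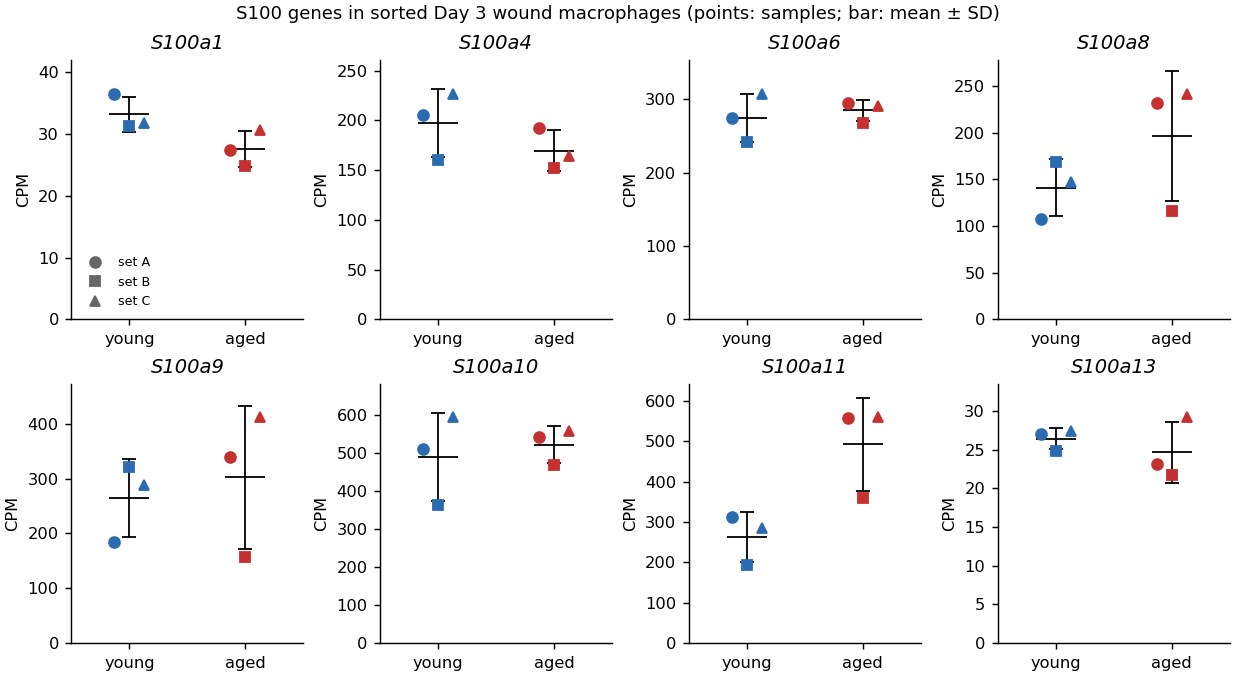
Level of each S100 gene in CPM (vertical axes from 0) in 3 young and 3 aged samples, with the set given by the symbol and bars for the mean ± SD. The aged points of S100a11 (359 to 559 CPM) sit above the young points (194 to 312 CPM), while in S100a8 and S100a9 the aged set B sample sits far below the other aged samples.

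S100a11 encodes a partner of annexins A1 and A2 that takes part in the repair of torn plasma membranes. It lies on the plus strand of chromosome 3 from 93520488 to 93526287, and its main transcript has 3 exons. S100a11 was measured at 312, 194 and 284 CPM in young samples A, B and C and at 558, 359 and 559 CPM in aged samples A, B and C. Every aged sample lay above every young sample, and set B was the lowest sample of each age. The mean rose from 263 ± 61.9 to 492 ± 115 CPM, a factor of 1.87. Its log2 fold change was 0.90 (95% interval 0.38 to 1.43, standard error 0.24, edgeR adjusted p = 0.0292), so the estimate lay under 2-fold and the interval reached past it. Leaving out any 1 sample kept the log2 fold change between 0.73 and 1.10, but the adjusted p was under 0.05 in 2 of these 6 fits. It was 0.0977 without young B, 0.0972 without young C, 0.0677 without aged A and 0.105 without aged C.

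**Figure D2:**
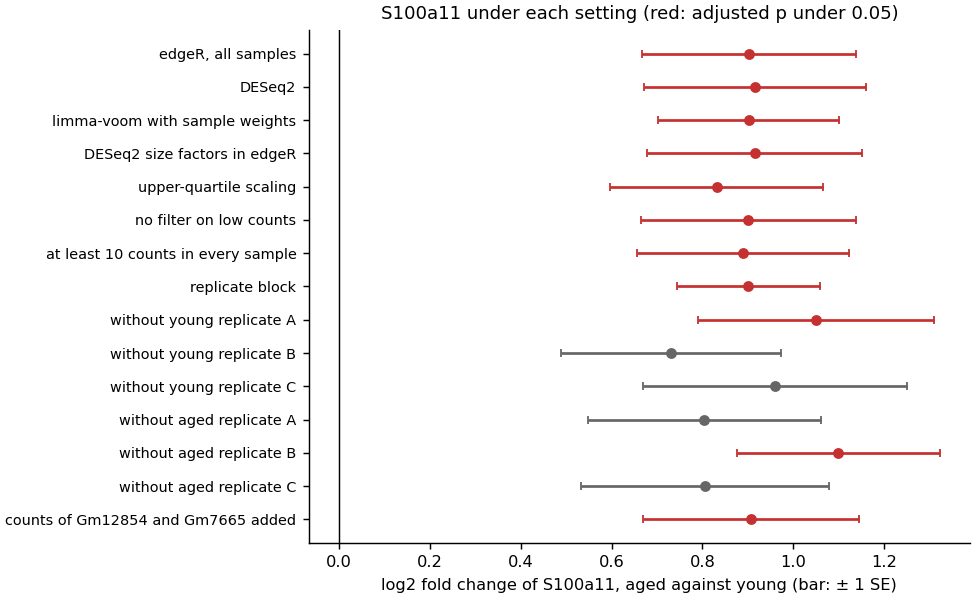
Log2 fold change of S100a11 in aged against young samples (horizontal axis, bars of ± 1 standard error) under each test, scaling, filter and set of samples. The estimates lie between 0.73 and 1.10 in every setting shown, and the 4 grey points, each without 1 sample, have adjusted p-values from 0.0677 to 0.105.

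S100a11 has near-identical copies in the genome, and reads that match several copies can be shared between them. Among annotated transcripts, 7 processed pseudogenes matched the S100a11 transcript at 85% identity or more over at least 150 bases. Of these Gm12854 and Gm7665 were in the count table. Gm12854 (chromosome 4, 116067268 to 116067564) matched S100a11 at 98.99% over 297 bases. Its counts were 13.3%, 11.7% and 11.6% of those of S100a11 in young A, B and C, and 12.6%, 12.9% and 12.8% in aged A, B and C. These shares were nearly constant over the 6 samples, and Gm12854 was also the gene with the nearest profile to S100a11 of 6587 candidates. Its log2 fold change was 0.96 (edgeR adjusted p = 0.0279). Gm7665 held at most 41 counts in a sample. With the counts of both copies added to S100a11, an alternative chosen after the data were seen, the log2 fold change of S100a11 was 0.91 (edgeR adjusted p = 0.0295). The counts of S100a11 were not whole numbers in all 6 samples, whereas those of S100a4, S100a10, S100a1 and S100a13 were whole within 0.005. S100a6 was not whole in 5 samples, and S100a8 and S100a9 were not in 4 each, without a copy found for any of these 3. Of the other members, S100a4 alone had such a match, to the overlapping gene model Gm42674 (302 bases at 100%), which has no row in the count table.

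S100a10, also called p11, binds annexin A2 as a tetramer that gathers plasminogen at the cell surface. It lies 28792 bases beyond S100a11 on the same strand, from 93555080 to 93564643. S100a10 was measured at 509, 363 and 593 CPM in young A, B and C and at 541, 467 and 557 CPM in aged A, B and C. The young samples spanned the whole range of the aged ones. The young mean was 488 ± 116 CPM, the aged mean 522 ± 47.6 CPM and the log2 fold change 0.10 (95% interval -0.36 to 0.55, edgeR adjusted p = 0.773). The log2 ratio of S100a10 to S100a11 within a sample was 0.71, 0.91 and 1.06 in young A, B and C and -0.05, 0.38 and -0.01 in aged A, B and C. All aged values lay below all young values, with a difference of means of -0.78. The same held for the ratios of S100a1, S100a4 and S100a6 to S100a11 (-1.17, -1.11 and -0.84). The ratio of S100a11 to S100a13 lay higher in all aged samples (1.01), and with S100a8 and S100a9 the ages overlapped. These ratios were not tested.

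S100a8 and S100a9 encode the subunits of calprotectin. They lie 22596 bases apart and point towards each other, S100a8 on the plus strand (90668978 to 90670035) and S100a9 on the minus strand (90692632 to 90695721). S100a8 was measured at 108, 168 and 147 CPM in young A, B and C and at 232, 116 and 242 CPM in aged A, B and C. Aged A and C lay above all young samples, while aged B lay between young A and young C. Its young mean was 141 ± 30.6 CPM and its aged mean 196 ± 69.99 CPM. The log2 fold change was 0.48 (95% interval -0.13 to 1.09, edgeR adjusted p = 0.244). Without aged B it was 0.76, with an edgeR adjusted p of 0.0462, and in the other 5 fits that left out 1 sample the adjusted p was above 0.05.

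S100a9 had the same order of samples within each age as S100a8. It was measured at 184, 321 and 288 CPM in young A, B and C and at 339, 158 and 412 CPM in aged A, B and C. Aged B was the lowest of all 6 samples and aged C the highest, so the ages overlapped throughout. The young mean was 264 ± 71.3 CPM and the aged mean 303 ± 131 CPM, with a log2 fold change of 0.20 (95% interval -0.52 to 0.92, edgeR adjusted p = 0.70). Its sign depended on the samples, being -0.08 without aged C and near 0 without young A. The young samples of S100a9 had a coefficient of variation of 27.0% and the aged ones 43.2%. For S100a8 these were 21.7% and 35.7%.

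The balance of the pair was compared within samples, where library scaling cancels. The ratio of S100a9 to S100a8 was 1.71, 1.91 and 1.96 in young A, B and C and 1.46, 1.36 and 1.70 in aged A, B and C. All aged ratios lay below all young ratios, though young A (1.7075) and aged C (1.7049) were almost equal. The log2 ratio averaged 0.89 ± 0.11 (young) and 0.59 ± 0.16 (aged), a difference of -0.30 with p = 0.1 in an exact two-sided permutation test, the smallest p that 3 samples against 3 allow. Over the fits that left out 1 sample this difference lay between -0.39 and -0.23.

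**Figure D3:**
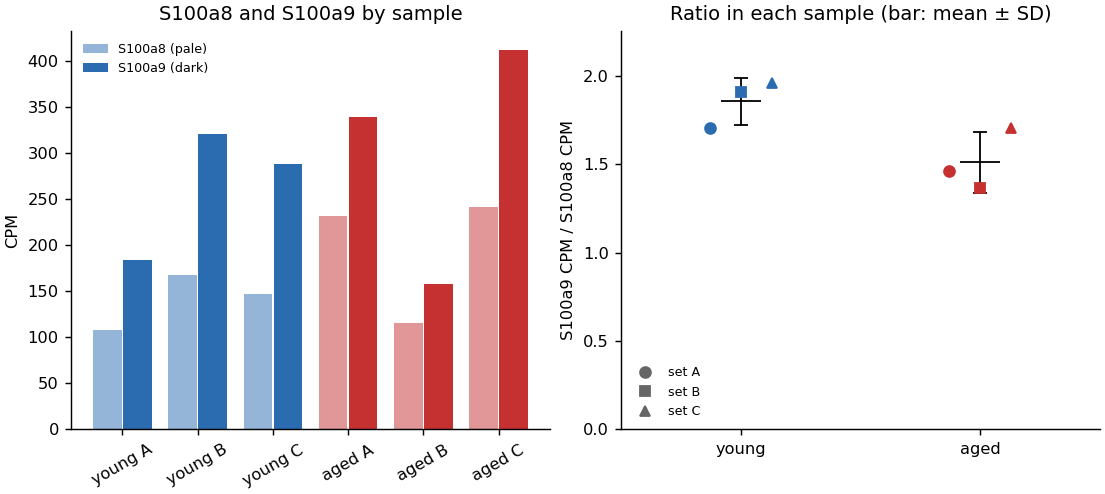
Left, S100a8 (pale bars) and S100a9 (dark bars) in CPM in each young (blue) and aged (red) sample. Right, the ratio of S100a9 to S100a8 in each sample with the mean ± SD. S100a9 exceeds S100a8 in all 6 samples, both are lower in aged B than in the other aged samples, and the ratio lies at 1.71 to 1.96 in young and 1.36 to 1.70 in aged samples.

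Markers of other cells were read beside the alarmins. Of 14 neutrophil markers 12 were in the count table, Mpo and Camp having no row, and Elane was at 0 in all young samples and at or under 0.42 CPM in aged ones. The summed level of the 12 was 432, 742 and 748 CPM in young A, B and C and 1028, 662 and 916 CPM in aged A, B and C. That of S100a8 and S100a9 together was 292, 489 and 435 CPM and 571, 273 and 653 CPM, so young A was lowest among young samples and aged B lowest among aged samples in both sums. Ly6g, the neutrophil surface marker, lay between 6.14 and 10.9 CPM in all samples. Of the 11 neutrophil markers tested, Cd177, Cxcr2, Lcn2 and Retnlg were higher in aged samples by the edgeR test (log2 fold changes 1.62, 1.13, 0.99 and 0.85), and 0 were lower. Mmp9 and Ltf had log2 fold changes of -0.54 and -0.31 and the rest of 0.05 to 0.50, and none of these passed. The shares over all tested genes were 9.73% higher and 7.97% lower. Without young C none of the neutrophil markers passed, and 1 was higher without young A, without aged A or without aged C. With a block on the set letter 1 was also higher, and 2 were without young B or with upper-quartile scaling. With limma-voom, and without young A, 1 neutrophil marker passed as lower. Among 6 markers of inflammatory monocytes Vcan alone passed the edgeR test, with a log2 fold change of 2.13, while DESeq2 called 3 of them higher and edgeR without aged B 2. Ly6c2, Ccr2 and Plac8 of the same list had log2 fold changes of -0.13, -0.17 and -0.02, and Chil3 of 0.95, and none of these passed the edgeR test. Of 8 macrophage markers 1 was higher and 1 lower by the edgeR test, with a median log2 fold change of -0.15. Of the markers of the sort, Itgam rose (log2 fold change 0.99), Adgre1 fell by 0.69 on that scale, and Ptprc and Fcgr1 did not pass. Lyz2, Cd68 and Mertk had log2 fold changes of -0.68, -0.41 and -0.72, and Ptprc, Fcgr1 and Csf1r of 0.26, 0.15 and 0.12. None of these passed. No macrophage marker passed as lower without young B, young C, aged A or aged C, whereas DESeq2 called 2 lower and limma-voom 3. The part of neutrophils and monocytes in the levels of S100a8 and S100a9 was not tested.

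By a rule that took the smallest root mean square difference between centred log2 CPM profiles over the 6 samples, S100a8 was most like Cd300lf, at a difference of 0.09. F11r, Gm16439, Gys1 and Egln3 followed, at 0.14 each. S100a9 was most like Cib2, which encodes another EF-hand protein (0.12), and then Sirpb1b, Egln3, S100a8 and Gm16439 (0.18 to 0.20). Egln3, a prolyl hydroxylase of the hypoxia response, and Gm16439 were thus near both alarmin genes. Cd300lf, an inhibitory receptor of myeloid cells, was at 105, 158 and 149 CPM in young and at 260, 128 and 250 CPM in aged samples A, B and C. Its aged B sample was low as in the alarmin genes.

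S100a6, or calcyclin, binds annexin A11 and the calcyclin-binding protein Cacybp. It was measured at 274, 242 and 307 CPM in young A, B and C and at 296, 268 and 291 CPM in aged A, B and C. All aged samples lay inside the young range. With means of 274 ± 32.8 and 285 ± 14.8 CPM and a log2 fold change of 0.05 (95% interval -0.31 to 0.41, edgeR adjusted p = 0.844), S100a6 was the member with the smallest estimated difference. Its sign turned under upper-quartile scaling (-0.02) and without young B (-0.02).

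S100a4, also known as FSP1 or metastasin, binds the heavy chain of non-muscle myosin and is widely expressed in myeloid cells. It was measured at 206, 160.1 and 227 CPM in young A, B and C and at 192, 152 and 164 CPM in aged A, B and C. Aged A lay between young B and young A, and the ages overlapped. The young mean was 197 ± 34.0 CPM and the aged mean 169 ± 20.8 CPM. The log2 fold change was -0.22 (95% interval -0.62 to 0.18, edgeR adjusted p = 0.420). It ranged from -0.34 without young B to -0.11 without young C. The genes with the nearest profiles to S100a4 were Psmb6, Psmb2 and Psma2, which encode subunits of the proteasome, followed by the copper chaperone gene Atox1 and by Gm6123, at differences of 0.05 to 0.06. These 5 genes had log2 fold changes of -0.16 to -0.27, and none passed the edgeR test.

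S100a1 and S100a13 lie head to head with 42 bases between their annotated starts, S100a1 on the minus strand (90511034 to 90514392) and S100a13 on the plus strand (90514435 to 90524581). S100a1 is best known from heart and skeletal muscle, where it binds the ryanodine receptor. S100a1 was measured at 36.5, 31.3 and 31.8 CPM in young A, B and C and at 27.5, 24.8 and 30.6 CPM in aged A, B and C. Every aged sample lay below every young one, by a narrow margin between aged C and young B. Its log2 fold change was -0.27 (95% interval -0.63 to 0.10), which did not pass the edgeR test (adjusted p = 0.282). The summed level of 4 muscle markers was 2.71, 22.2 and 4.76 CPM in young A, B and C and 2.38, 4.59 and 8.21 CPM in aged A, B and C. All 4 (Acta1, Ckm, Tnnt3 and Mylpf) had log2 fold changes below 0, and none passed the edgeR test. Their median was -0.99 with all samples, -0.19 without young B and between -0.78 and -1.52 without any other sample. Their part in the level of S100a1 was not tested. S100a13 was measured at 27.0, 24.9 and 27.3 CPM in young A, B and C and at 23.2, 21.7 and 29.2 CPM in aged A, B and C. Aged C was the highest of all 6 samples and aged B the lowest. The log2 fold change of S100a13 was -0.10 (95% interval -0.49 to 0.29, edgeR adjusted p = 0.722), and it was 0.00 without aged B and -0.23 without aged C. Of the 28 pairs of members, S100a1 and S100a13 had the most similar profiles, at a root mean square difference of 0.11 in centred log2 CPM over 6 samples. S100a6 and S100a10 followed at 0.12. Outside the members, S100a1 and S100a13 each had 5 genes with nearer profiles, at 0.05 to 0.06.

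**Figure D4:**
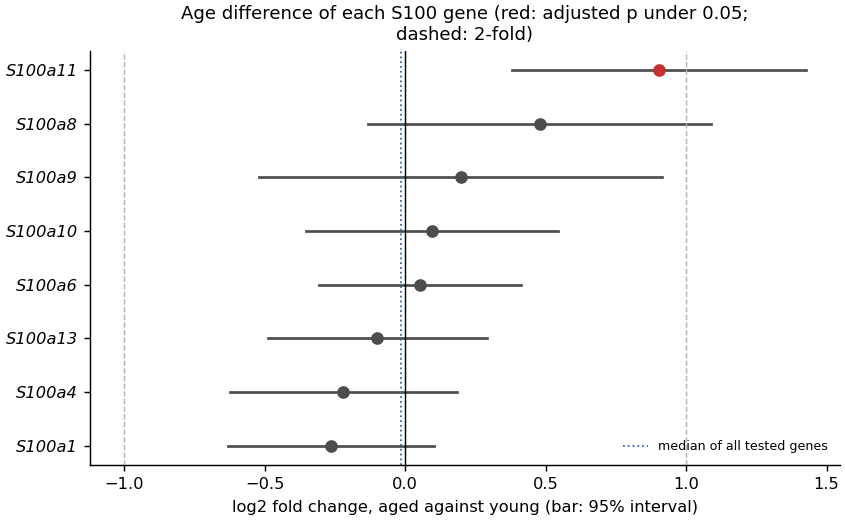
Log2 fold change of each S100 gene in aged against young samples (horizontal axis) with its 95% interval. The interval of S100a11 (0.38 to 1.43) alone excludes 0, the intervals of S100a8 and S100a11 reach past 1 (2-fold), and the median of all tested genes lies at -0.02.

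Summed over the 8 members, S100 transcripts made up 1657, 1503 and 1905 CPM in young A, B and C and 2208, 1566 and 2284 CPM in aged A, B and C. Aged B lay among the young samples. The share of S100a11 in this sum was 12.9% to 18.8% in young and 22.9% to 25.3% in aged samples. S100a4 took 10.7% to 12.4% in young and 7.19% to 9.70% in aged samples. S100a8 and S100a9 together took between 17.5% and 32.5%, with young and aged samples interleaved.

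Other genes of the S100 family were looked for, the fused-type S100 genes of the epidermis included, and S100a14, S100a16 and S100b had a row in the count table. S100a16 was at 36, 29 and 23 counts in young A, B and C and at 4, 128 and 9 counts in aged A, B and C. Aged B stood far above every other sample, while aged A and C lay below all young samples. The log2 fold change of S100a16 was 0.79 (edgeR adjusted p = 0.577) with all samples and -2.01 (edgeR adjusted p = 0.0488) without aged B. S100a14, an epithelial S100 gene, held 28 counts in aged B and between 0 and 3 in the other samples. In the same sample the summed level of 9 keratinocyte markers was 189 CPM, against 1.94 to 9.11 CPM in the other 5 samples, with Krt14 at 80.2 CPM and Krt17 at 36.9 CPM. Of these markers Krt14 and Sfn were tested, and both passed as higher in aged samples, beside 9.73% of all tested genes. Neither did without young B, without young C or with limma-voom, and 1 of them did without aged A or without aged B. The log2 fold change of Krt14 was 8.29 with all samples and as low as 3.25 with 1 left out. The summed level of fibroblast markers was 121 CPM in aged B and 12.6 to 41.2 CPM elsewhere. The part of these cells in the values of aged B was not tested. S100b had at most 8 counts in a sample, and S100pbp, which encodes a protein that binds S100P, averaged 2.71 ± 0.36 CPM (young) and 4.85 ± 0.94 CPM (aged) (log2 fold change 0.84, edgeR adjusted p = 0.0705).

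Receptors of S100 proteins and their signalling genes were read next. Of 15 listed, 14 were tested, and 8 rose while 0 fell (edgeR adjusted p under 0.05), and their median log2 fold change was 0.84 beside -0.02 over all genes, of which 9.73% rose. The list was written with earlier results of these data known. Tlr4, the main receptor of calprotectin on macrophages, was at 95.9, 69.1 and 78.1 CPM in young A, B and C and at 198, 246 and 258 CPM in aged A, B and C. All aged samples lay above all young ones, and Tlr4 rose by 1.53 ± 0.19 (standard error) on the log2 scale (edgeR adjusted p = 0.00202), with p under 0.05 in all 6 fits that left out 1 sample. Its co-receptor gene Cd14 rose by 1.10 and the scavenger receptor gene Cd36 by 0.83 on the log2 scale. Ly96, which encodes MD-2, the TLR4 partner that holds the ligand, averaged 22.9 CPM (young) and 23.1 CPM (aged) (log2 fold change 0.02). Bsg, which encodes the S100A9 receptor CD147, was at 685 and 702 CPM (log2 fold change 0.04), and neither passed the edgeR test. Ager, which encodes RAGE, had no row in the count table and was not analysed here. Fpr1 and Fpr2, formyl peptide receptors that also bind annexin A1, had log2 fold changes of 1.70 and 1.31, and the adhesion receptor gene Alcam 0.96. Of the adaptors, Ticam1 and Traf6 rose by 1.47 and 0.86, while Myd88 had 0.33 (edgeR adjusted p = 0.222). Of the fits that left out 1 sample, Fpr1 passed in all 6, Fpr2 and Alcam in 5, Cd14 in 4, Ticam1 and Traf6 in 3 and Cd36 in 2. Over these 6 fits the log2 fold change of Cd36 lay between 0.52 and 0.99. Without young C, 2 of the 14 genes passed, without aged C 4 and without young B 5.

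Annexins, the membrane-binding partners of S100 proteins, showed 1 gene that rose and 0 that fell among 9 tested (median log2 fold change 0.13). The count that rose was near the 9.73% of all tested genes that were higher, and 7.97% were lower. DESeq2 called 2 annexin genes higher and 1 lower, limma-voom 1 higher and 2 lower, and upper-quartile scaling 1 higher and 1 lower. The gene was Anxa11, the partner of S100A6, at 20.2, 10.9 and 14.5 CPM in young and at 30.2, 32.9 and 32.0 CPM in aged samples A, B and C (log2 fold change 1.06, edgeR adjusted p = 0.0152). Anxa11 did not pass without young C or without aged C, with adjusted p-values up to 0.0815 by edgeR, and without young A 2 other annexin genes passed as lower. Anxa1 and Anxa2 are named as the partners of S100A11 and S100A10, after their values were seen. Anxa2 averaged 1774 CPM (young) and 2574 CPM (aged) (log2 fold change 0.54, edgeR adjusted p = 0.0841), and Anxa1 at 950.2 and 721 CPM (log2 fold change -0.40, edgeR adjusted p = 0.186). In Anxa2 all aged samples lay above, and in Anxa1 all lay below, the young samples.

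Of 30 listed binding partners and linked genes 27 were tested, of which 9 rose and 1 fell (median log2 fold change 0.22), beside 9.73% and 7.97% of all tested genes. Il1a, whose protein leaves cells by a route that S100A13 takes part in, was at 90.3, 294 and 238 CPM in young A, B and C and at 1219, 931 and 1427 CPM in aged A, B and C. The ages did not overlap, and Il1a rose by 2.52 ± 0.38 (standard error) on the log2 scale (edgeR adjusted p = 0.00436). Plaur and Plat, of the plasminogen system that S100A10 serves, rose by 1.36 and 1.04. Vim and Nucb2 rose by 0.72 each, and the tropomyosin gene Tpm1 was the gene that fell (-0.68). Named after their values were seen, Ahnak, a large protein held by S100A10 and annexin A2, rose by 0.94, and Myh9, the myosin target of S100A4, by 0.82. The count that rose in this list was 1 without young C, 2 without young B, 4 without aged A and 5 without aged B or aged C. Tpm1, Vim and Plat each passed in 1 of the 6 fits that left out a sample, Ahnak, Myh9 and Nucb2 in 2, Plaur in 5 and Il1a in 6. The samples of Myh9 overlapped between the ages.

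Of 28 tested genes of other EF-hand proteins, 4 rose and 1 fell (median log2 fold change 0.05), a share near the 17.7% called among all tested genes. The gene that fell was Aif1, which encodes the macrophage protein IBA1 and lay at 198, 226 and 273 CPM in young A, B and C and at 86.7, 77.3 and 90.5 CPM in aged A, B and C. The aged samples all lay below the young, and Aif1 fell by 1.46 on the log2 scale (edgeR adjusted p = 0.00195). Capn2, Chp1, Calu and Tbc1d9 rose, by 0.66, 0.76, 0.69 and 1.20 on the log2 scale. None of these 4 passed without young B, without young C or without aged C, whereas Aif1 passed in all 6 fits that left out 1 sample.

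**Figure D5:**
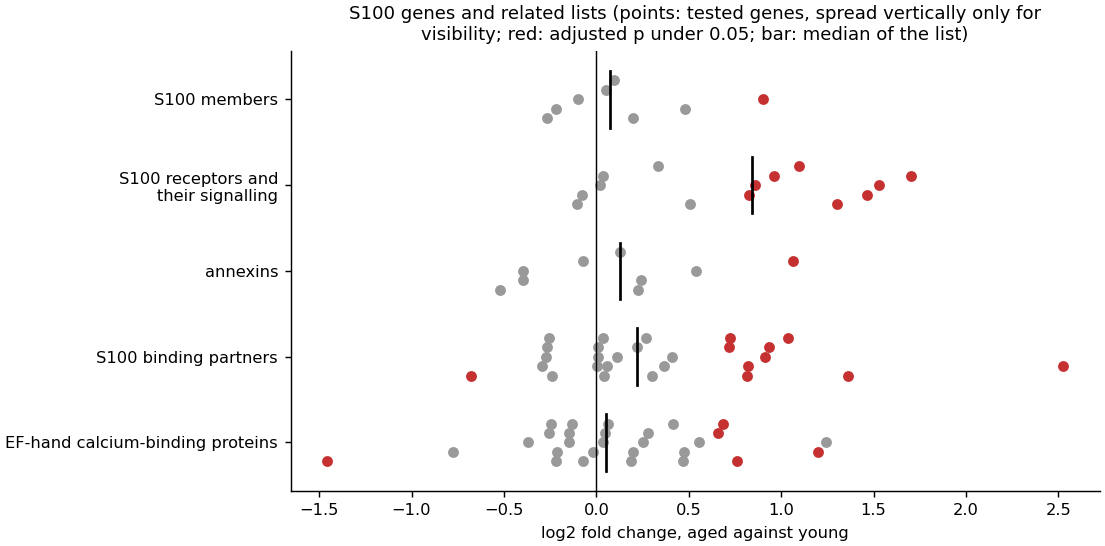
Log2 fold change in aged against young samples (horizontal axis) of each tested gene in the S100 group and 4 related lists, with red for an adjusted p under 0.05 and a bar at the median of each list. The receptor list is centred at 0.84, the S100 genes at 0.07 and the other lists at 0.05 to 0.22.

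Within 100 kilobases of the members, 7 other genes had a row in the count table and 6 were tested. Of these Ilf2, which encodes a double-stranded RNA-binding protein, was lower in aged samples (log2 fold change -0.79, edgeR adjusted p = 0.0240), and 0 were higher. Among all tested genes 7.97% were lower and 9.73% higher. Chtop, the nearest tested gene on the far side of S100a1, had a log2 fold change of 0.42 (edgeR adjusted p = 0.0842). All 7 lay beside the group from S100a1 to S100a9. None lay in the window of S100a11, where the member S100a10 was the only other gene with a row.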

How the data were processed

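RNA of sorted Day 3 wound macrophages was sequenced from young mice (3 samples) and aged mice (3 samples). The authors aligned reads with STAR 2.7.3a and quantified them in Partek Flow to mm10 Ensembl transcripts release 102. They deposited expected counts per gene without normalisation for genes with a total of at least 10, and use of the read strand is not stated. A table of their own DESeq2 comparison (p-values and fold changes) was not used. Here expected counts were rounded, since the planned test assumed counts, and tested in R 4.3.3 with edgeR 4.0.16 (TMM scaling, filterByExpr, quasi-likelihood test, Benjamini-Hochberg over 11878 genes). A 95% interval is the log2 fold change ± the t quantile times its standard error. Profiles used log2 CPM with a prior count of 2 and genes with a mean of at least 10 CPM. Alternatives were DESeq2 1.42.0, limma 3.58.1 (voom with sample weights), other scalings and filters, a block on the set letter and fits that omit each sample in turn. Copies were found with BLAST 2.17.0 in GENCODE M21. The fits were tested on simulated data, and no result of that test is given here.

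The members and gene lists were chosen with earlier results of these data known. All members were named in every sample. Of other lists, genes past the test were named if 6 or fewer, otherwise the 3 highest and 3 lowest of them, along with every receptor and the 5 nearest profiles of S100a8, S100a9 and S100a4. Endothelial, muscle and dendritic markers were also listed, and of these Pecam1 alone passed the edgeR test with all samples (log2 fold change 1.69). It was 1 of 2 endothelial markers tested, beside 9.73% of all tested genes that were higher. Kdr, the other, had -0.40, and Cdh5, Tek and Emcn did not pass the filter on low counts. No protein sequences were used here.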

Additional observations from a re-analysis of the deposited data

How the results depend on the processing

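S100a11 kept its direction in all 13 alternatives and an adjusted p under 0.05 in all 7 that used every sample (0.0024 to 0.0363). Leaving out 1 sample gave log2 fold changes of 0.731 to 1.099 for S100a11, 0.307 to 0.76 for S100a8, -0.084 to 0.519 for S100a9, -0.023 to 0.143 for S100a6 and -0.071 to 0.259 for S100a10. The sign of S100a6 also turned with limma-voom (-0.003) and upper-quartile scaling (-0.019). S100a4, S100a1 and S100a13 stayed past no threshold in any setting. Members called higher numbered 0 to 2 with 1 sample left out, and 0 to 1 with the 2-fold rule. Over all genes those fits called 151 to 1574 higher and 67 to 1128 lower at an adjusted p under 0.05, and 149 to 896 and 64 to 607 with the 2-fold rule. limma-voom called 1933 higher and 1713 lower without the 2-fold rule. Whether the set letter pairs the samples is not stated and was not tested. The correlation of deviations was 0.181, -0.021 and 0.114 for A, B and C, and -0.215 to 0.138 between unlike letters. With the set letter as a replicate block, S100a11 had 0.901 (edgeR adjusted p = 0.0118). Its standard error was 0.158, beside 0.236 without the block. No member's call changed with the block. In that fit 1 neutrophil marker was called higher in place of 4, and 0 binding partners lower in place of 1. It also called 2 dendritic markers higher and 2 macrophage markers lower, in place of 0 and 1. Of the dendritic markers limma-voom called 1 higher, and 2 passed without young A. S100a16 turned to -0.702 with limma-voom, -0.331 with the block and -2.01 without aged B, and leaving out 1 sample gave -2.01 to 1.319. S100pbp passed with limma-voom (0.891). The annexin median was -0.032 without young A, and the receptor median 0.708 without aged B. S100a13, the scarcest member, had 2470 counts over the 6 samples. The causes were not tested.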
